A study of Mus musculus with 4 samples.

Results

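Transcripts of 10 mast cell genes were followed through 4 RNA-seq libraries of cells that were sorted as group 2 innate lymphoid cells (ILC2) from mouse adipose tissue. The genes were taken by symbol, and 10 of 10 were among the 10941 genes of the deposited table. They are the granule proteases Cpa3, Cma1, Tpsb2 and Mcpt4, the histamine-making enzyme gene Hdc, the receptors Fcer1a, Kit, Mrgprb1 and Mrgprb2, and the transcription factor gene Gata2. The set was selected on read counts of these 4 libraries, since it was drawn up with their levels known, so levels are given as a description and carry no test of the set. All 10 had a count in every library, the smallest being 370 reads of Gata2 and the largest 75188 reads of Cpa3.

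Mast cells are long-lived tissue cells that store histamine and proteases in heparin-rich granules and release them when IgE on the receptor FcεRI is cross-linked, or when cationic peptides bind a Mas-related receptor. In the mouse, connective tissue mast cells carry the chymase Mcpt4, the tryptase Tpsb2, the elastase-like protease encoded by Cma1 and carboxypeptidase A3, whereas mucosal mast cells are known for Mcpt1 and Mcpt2. Adipose tissue holds mast cells of the connective tissue kind, and like ILC2 they bear the interleukin-33 receptor Il1rl1.

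The study set Rptor-deleted against Rptor-intact cells. Rptor encodes Raptor, the subunit that defines the kinase complex mTORC1. Every mouse had an Il5 allele that drives Cre recombinase with a red fluorescent reporter (R5/+), so deletion depends on expression of Il5. There were 2 libraries named KO and 2 named WT, but the titles give Rptor+/+ for the KO-named samples and Rptor f/f for the WT-named ones. The design text calls the Rptor f/f animals the knockout, so names and titles are opposed in all 4 samples, and the groups are called KO-named and WT-named here, with directions stated by library name. No label states the strain, age, sex, pooling of animals or sorting gate. Each group has a column 1 and a column 3 in the table but a library 1 and a library 2 in the labels, so a column numbered 3 matches no labelled library and is tied to its group only. Whether the 2 libraries of a group are from different animals is not stated, and a p-value here reflects the spread between libraries, and some or all of that may be technical.

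Summed over the 10941 genes listed, totals came to 15258780 and 18856218 counts in KO-named libraries 1 and 3. They were 18151479 and 17868376 in WT-named libraries 1 and 3. Shares and CPM values here are relative to these totals, which leave out reads of genes not listed. CPM is the count of a gene per 1000000 counts of its library's total, after TMM scaling. Rptor itself was at 0.969 and 33.8 CPM in KO-named libraries 1 and 3, against 14.5 and 76.7 CPM in WT-named libraries 1 and 3. The groups thus overlapped, and the gene did not settle which label holds. Libraries of a group differed far beyond sampling noise, with a chi-square over degrees of freedom of 445 between the KO-named and 274 between the WT-named libraries. In edgeR's quasi-likelihood test 0 of 8753 genes passed an adjusted p of 0.05, and 859 had an unadjusted p under 0.05. DESeq2 called 952 genes. KO-named library 1 stood apart by stromal transcripts, as given with the marker lists.

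Together the 10 genes made up 0.959% of counts in KO-named library 1 (95% Wilson interval 0.954 to 0.964) and 0.784% in KO-named library 3 (0.780 to 0.788), against 1.01% in WT-named library 1 (1.00 to 1.01) and 0.733% in WT-named library 3 (0.729 to 0.737). The group means were 0.871% ± 0.124 in the KO-named and 0.870% ± 0.194 in the WT-named libraries (SD, n = 2 each). As a plain share of the counts of listed genes, the mast cell transcripts thus differed between the groups by less than the SD. In either group library 1 held more of them than library 3. With TMM scaling the summed level was 9780.3 CPM ± 1591 in the KO-named and 7698 CPM ± 968 in the WT-named group (SD, n = 2 each), a log2 ratio of 0.35. With library size alone that ratio was 0.0023. The intervals cover counting error only, since reads that carry no molecular identifier need not be separate molecules. In bulk RNA, fewer cells of a type and less RNA per cell cannot be told apart.

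**Figure D1:**
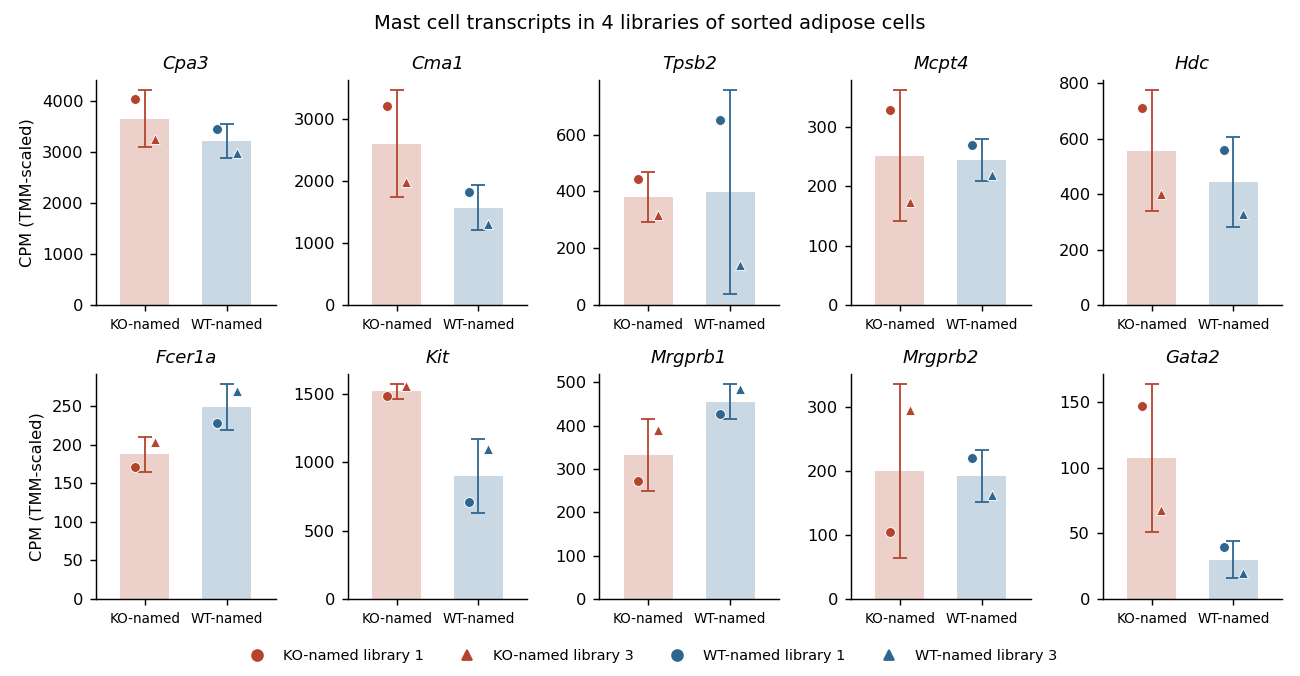
Level of each of the 10 mast cell genes in CPM (TMM-scaled, linear axes from 0), with KO-named libraries left of WT-named ones. Points are single libraries, bars the group means and whiskers the SD of 2 libraries. Cma1, Kit and Gata2 were higher in both KO-named libraries than in either WT-named one, and Fcer1a and Mrgprb1 were lower in both. The Tpsb2 libraries of the WT-named group lay far apart, at 650.0 and 143 CPM.

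Cpa3, which encodes mast cell carboxypeptidase A3 (Entrez 12873, chromosome 3, 20215616 to 20242209, mm10), was the steadiest of the proteases. It had 4034 and 3253 CPM in KO-named libraries 1 and 3, against 3448 and 2975 CPM in WT-named libraries 1 and 3. The groups overlapped, and the highest library was 1.36 times the lowest. Its log2 fold change was 0.18 (SE 0.31, edgeR adjusted p = 0.935), and −0.16 with library size alone as the scaling.

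Cma1, which encodes mast cell protease 5 (Entrez 17228, chromosome 14, 55941451 to 55944675), had 3209.6 and 1993 CPM in KO-named libraries 1 and 3, against 1832 and 1317 CPM in WT-named libraries 1 and 3. Neither WT-named library reached the lower KO-named one with TMM scaling, although KO-named library 3 exceeded WT-named library 1 by little, and the groups overlapped with library size alone. The means were 2601 CPM ± 860.4 in the KO-named and 1575 CPM ± 365 in the WT-named group (SD, n = 2 each). That is a log2 fold change of 0.72 (SE 0.36), which did not pass edgeR (adjusted p = 0.583).

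Mcpt4, the chymase gene that lies 115068 bases from Cma1 (Entrez 17227, chromosome 14, 56059744 to 56062310), had 329 and 173 CPM in KO-named libraries 1 and 3, against 269 and 219 CPM in WT-named libraries 1 and 3. Here the KO-named libraries held both the highest and the lowest value. The log2 fold change was 0.04 (SE 0.53, edgeR adjusted p = 0.991), and it was −0.48 without KO-named library 1 and −0.31 with library size alone. Of the stretches of 50 bases in the longest coding transcript, 5.48% for Mcpt4 recur in Cma2 or Mcpt9 and 5.38% for Cma1 recur in Gm48934, so a small part of either gene could share reads with a relative.

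Tpsb2, the gene of mast cell tryptase beta 2 (Entrez 17229, chromosome 17, 25366308 to 25368096), varied most among the proteases. It had 443 and 318 CPM in KO-named libraries 1 and 3, against 650.0 and 143 CPM in WT-named libraries 1 and 3. The WT-named libraries enclosed the KO-named ones, with the highest library 4.55 times the lowest. Its log2 fold change, −0.06 (SE 0.63, edgeR adjusted p = 0.989), became 1.39 without WT-named library 1 and −0.71 without WT-named library 3, so its sign rests on single libraries.

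Hdc (Entrez 15186, chromosome 2, 126593659 to 126624025) encodes histidine decarboxylase, the enzyme that makes histamine. It had 710.1 and 402 CPM in KO-named libraries 1 and 3, against 558 and 329 CPM in WT-named libraries 1 and 3. In both groups library 1 was well above library 3, and the groups overlapped. The log2 fold change was 0.33 (SE 0.47, edgeR adjusted p = 0.920), −0.13 without KO-named library 1 and −0.04 with library size alone.

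The promoters of the granule genes Cpa3, Cma1 and Mcpt4 and of the IgE receptor gene Fcer1a are shown because GATA factors, Gata2 among them, are known regulators of mast cell genes and all 4 hold the letters GATAA. Each sequence is the 250 bases before the start of a RefSeq transcript (GRCm38.p6, the assembly mm10 names), 5′ to 3′ on the gene's strand. Capitals mark GATAA, or TTATC where the match is on the opposite strand.
Cpa3, chr3:20242182-20242431, minus strand: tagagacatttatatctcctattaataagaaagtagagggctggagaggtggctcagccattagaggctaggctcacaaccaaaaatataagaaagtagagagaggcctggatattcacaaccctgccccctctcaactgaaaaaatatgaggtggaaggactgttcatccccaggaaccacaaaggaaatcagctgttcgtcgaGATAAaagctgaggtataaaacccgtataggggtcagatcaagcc
Cma1, chr14:55944676-55944925, minus strand: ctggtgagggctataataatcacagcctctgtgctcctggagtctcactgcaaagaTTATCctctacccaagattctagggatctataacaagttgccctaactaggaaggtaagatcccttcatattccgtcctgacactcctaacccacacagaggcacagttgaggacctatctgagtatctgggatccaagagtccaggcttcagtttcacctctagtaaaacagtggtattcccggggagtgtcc
Mcpt4, chr14:56062311-56062560, minus strand: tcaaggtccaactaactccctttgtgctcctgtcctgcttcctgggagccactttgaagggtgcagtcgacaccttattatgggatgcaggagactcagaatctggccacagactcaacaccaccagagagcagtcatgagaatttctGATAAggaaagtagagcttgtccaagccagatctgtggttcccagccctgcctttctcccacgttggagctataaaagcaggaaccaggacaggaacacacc
Fcer1a, chr1:173227230-173227479, minus strand: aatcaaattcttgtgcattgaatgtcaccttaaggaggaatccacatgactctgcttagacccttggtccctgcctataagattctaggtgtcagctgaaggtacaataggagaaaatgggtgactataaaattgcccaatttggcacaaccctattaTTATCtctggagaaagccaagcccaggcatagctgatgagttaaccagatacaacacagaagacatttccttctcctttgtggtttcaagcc
The match began 45 bases before the start in Cpa3, 194 in Cma1, 102 in Mcpt4 and 92 in Fcer1a. The 9 genes with an entry in the promoter table have 11 promoters there, of which 5 (45.5%) had GATAA on either strand, the other being that of Mrgprb2, and 22.6% of all 32851 promoters of that length did. Hdc, Kit, Mrgprb1 and Gata2 had none in these windows. A match describes letters in the genome and was not tied to binding or to the levels here.

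The IgE receptor chain Fcer1a (Entrez 14125, chromosome 1, 173221269 to 173227232), which binds IgE on mast cells and basophils, was lower in the KO-named libraries under every scaling used. It had 171 and 204 CPM in KO-named libraries 1 and 3, against 228 and 269.6 CPM in WT-named libraries 1 and 3. The groups did not overlap with TMM factors, RLE factors or library size alone. The means were 187 CPM ± 22.8 in the KO-named and 249 CPM ± 29.4 in the WT-named group (SD, n = 2 each). This amounts to a log2 fold change of −0.41 (SE 0.51) with TMM and −0.73 with library size alone, and it did not pass edgeR (adjusted p = 0.905).

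Kit (Entrez 16590, chromosome 5, 75574987 to 75656722), the receptor for stem cell factor on which mast cells depend, lay the other way. It had 1484 and 1557 CPM in KO-named libraries 1 and 3, against 711 and 1095 CPM in WT-named libraries 1 and 3. The KO-named libraries were close to each other and above the WT-named ones without overlap, with TMM, RLE factors and library size alone. The means were 1521 CPM ± 52.1 in the KO-named and 903 CPM ± 272 in the WT-named group (SD, n = 2 each). With a log2 fold change of 0.75 (SE 0.36), edgeR gave it an adjusted p of 0.549, the smallest of the 10 genes. Within a library the ratio of Fcer1a to Kit per kilobase of transcript, which no library scaling moves, was 0.607 and 0.687 in KO-named libraries 1 and 3, against 1.68 and 1.29 in WT-named libraries 1 and 3. Fcer1a thus exceeded Kit per length in both WT-named libraries and was below it in both KO-named ones, a contrast chosen after the values were seen and given with no test. The part of the Kit reads that came from mast cells was not tested.

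Mrgprb1 and Mrgprb2 are neighbouring genes of the Mas-related receptor family, 94622 bases apart on chromosome 7. Mrgprb2 (Entrez 243979, 48550965 to 48558086) is the mast cell receptor for basic secretagogues, and Mrgprb1 (Entrez 233231, 48444113 to 48456342) is a close relative. Mrgprb1 had 273 and 390.4 CPM in KO-named libraries 1 and 3, against 426 and 484 CPM in WT-named libraries 1 and 3. The KO-named libraries were lower without overlap with TMM and with library size alone, but the groups overlapped with RLE factors. Its log2 fold change was −0.46 (SE 0.43, edgeR adjusted p = 0.863).

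Mrgprb2 had 104 and 296 CPM in KO-named libraries 1 and 3, against 221 and 163 CPM in WT-named libraries 1 and 3. The KO-named libraries enclosed the WT-named ones, and a log2 fold change of 0.06 (SE 0.62, adjusted p = 0.989 by edgeR) became −0.89 without KO-named library 3. Per kilobase of transcript the ratio of Mrgprb2 to Mrgprb1 was 0.768 and 1.53 in KO-named libraries 1 and 3, against 1.04 and 0.679 in WT-named libraries 1 and 3, so neither receptor was the higher one throughout. The deposited counts of Mrgprb1 were fractional in 4 of 4 libraries, whereas those of Mrgprb2 were whole, and no stretch of 50 bases of either longest coding transcript recurs in another gene.

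Gata2 (Entrez 14461, chromosome 6, 88193891 to 88207032), a transcription factor that mast cells and basophils need, had the largest fold change of the 10. It had 147 and 67.8 CPM in KO-named libraries 1 and 3, against 39.9 and 19.8 CPM in WT-named libraries 1 and 3. The KO-named libraries were higher without overlap with TMM, RLE factors and library size alone, and library 1 was above library 3 in both groups. The means were 107 CPM ± 56.0 in the KO-named and 29.9 CPM ± 14.2 in the WT-named group (SD, n = 2 each). EdgeR put its log2 fold change at 1.85 (SE 1.00, adjusted p = 0.626), and it was 1.20 without KO-named library 1 and 2.41 without WT-named library 1. The authors' deposited table gives Gata2 a log2 fold change of 2.14 in the same direction with a q-value of 0.112, and the authors' deposited table gives the other 9 genes a q-value of 0.995.

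Over the 10 genes, 0 passed edgeR's quasi-likelihood test at an adjusted p of 0.05, as did 0% of all genes tested, and 0 had an unadjusted p under 0.05, where 9.81% of all genes did. DESeq2 called 0 of them, where it called 9.85% of all genes with an adjusted p, and limma-voom called 0, against 2.3% of all genes, with 2 members at an unadjusted p under 0.05, where 12.2% of all genes were. With TMM scaling the KO-named libraries were above without overlap for 3 genes (Cma1, Kit and Gata2), where 17.8% of all tested genes were, and below for 2 (Fcer1a and Mrgprb1), where 22.1% were. With library size alone it was 2 above, against 12.2% of all genes, and 2 below, against 28.6%. With RLE factors it was 4 above, Cpa3 being the other, against 19.5% of all genes, and 1 below, against 20.9%. The median log2 fold change of the 10 genes was 0.12 and that of all 8753 tested genes 0.05. Library size alone as the scaling put the median of all genes at −0.28, and the signs of Cpa3, Mcpt4, Hdc and Mrgprb2 turned negative with it.

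**Figure D2:**
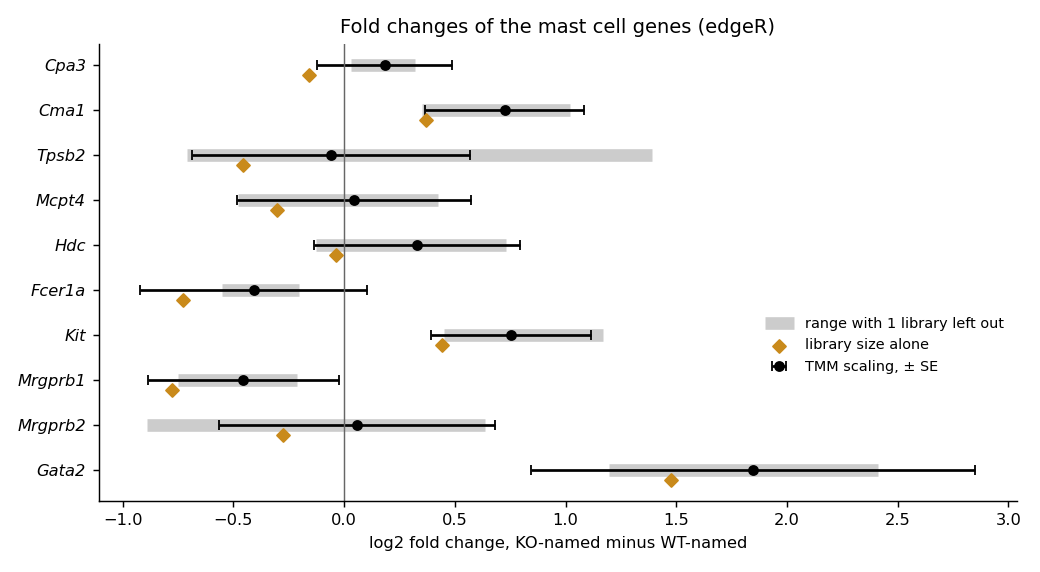
Log2 fold change of each mast cell gene, KO-named minus WT-named, from edgeR. Black points with whiskers are TMM-scaled values ± SE, grey bars the range over fits that each leave out 1 of the 4 libraries, and diamonds the values with library size alone. The points, grey bars and diamonds of Gata2, Kit and Cma1 lie right of 0 and those of Fcer1a and Mrgprb1 left of it, although the SE whisker of Fcer1a crosses 0, while the grey bars of Tpsb2, Mcpt4, Hdc and Mrgprb2 cross 0.

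Levels of different genes were compared as CPM per kilobase of the longest coding transcript, and on that scale the order was clear only at its ends. Cpa3 averaged 2515 CPM per kilobase ± 381 in the KO-named and 2217 ± 231 in the WT-named libraries (SD, n = 2 each). Cma1 averaged 2386 CPM per kilobase ± 789 in the KO-named and 1445 ± 334 in the WT-named libraries (SD, n = 2 each). They were the highest members in each library, and Cma1 led in KO-named library 1 alone. Cpa3 ranked between 15 and 49 among the 10538 genes with a transcript length. The pair held 78.7% and 75.4% of the summed level per kilobase of the 10 genes in KO-named libraries 1 and 3, against 72.2% and 74.4% in WT-named libraries 1 and 3.

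Tpsb2, Kit, Mcpt4, Fcer1a and Hdc followed, between 111 and 504 CPM per kilobase. Their ranges over the 4 libraries overlapped from each to the next, so their order is not settled beyond the spread. Mrgprb2 averaged 96.3 CPM per kilobase ± 65.2 in the KO-named and 92.4 ± 19.6 in the WT-named libraries, and Mrgprb1 79.3 ± 19.8 in the KO-named and 108.7 ± 9.69 in the WT-named libraries (SD, n = 2 each). Mrgprb2 was below Hdc in every library, and the order of the receptor pair was not settled. Gata2 was the lowest member in every library, between 5.55 and 41.2 CPM per kilobase, and its range did not reach that of Mrgprb1.

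**Figure D3:**
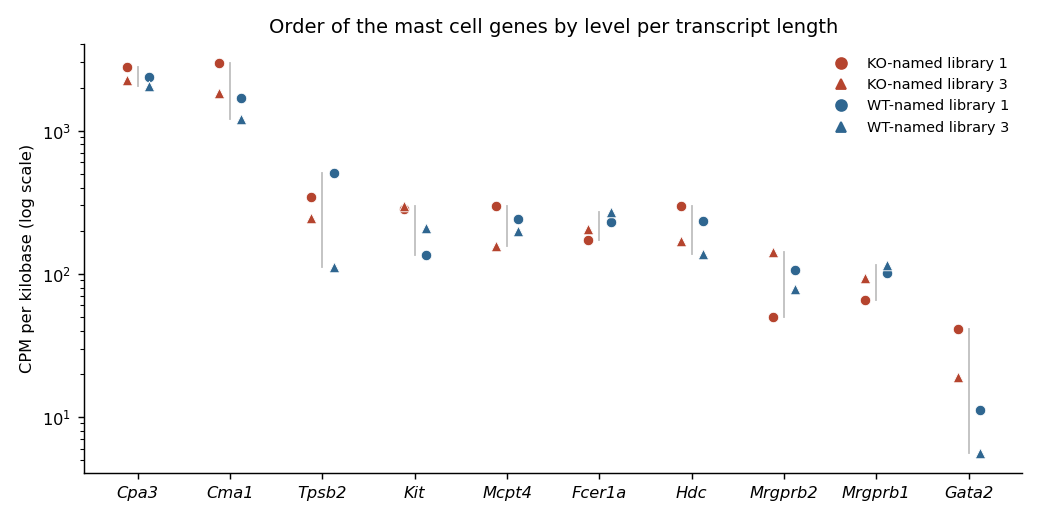
Level of the 10 mast cell genes in CPM per kilobase of transcript on a log axis, ordered by the mean of the 4 libraries. Points are libraries, KO-named left of WT-named at each gene, and grey lines span the 4 libraries. Cpa3 and Cma1 lie at or above 1208 throughout, and Gata2, at 5.55 to 41.2, lies below all others.

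Set against Cpa3 in the same library, the 9 other genes showed how far the mast cell transcripts kept their proportions. Mcpt4 and Hdc kept them best. Per kilobase, Mcpt4 stood at 0.107 and 0.0697 of Cpa3 in KO-named libraries 1 and 3, against 0.102 and 0.0961 in WT-named libraries 1 and 3. Hdc stood at 0.107 and 0.0749 of Cpa3 in KO-named libraries 1 and 3, against 0.0980 and 0.0669 in WT-named libraries 1 and 3. Neither ratio separated the groups.

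Gata2 varied most relative to Cpa3, at 0.0148 and 0.00846 of it in KO-named libraries 1 and 3, against 0.00470 and 0.00270 in WT-named libraries 1 and 3. Cma1 stood at 1.06 and 0.814 of Cpa3 in KO-named libraries 1 and 3, against 0.706 and 0.588 in WT-named libraries 1 and 3. For these 2 of the 9 genes the ratio was higher in the KO-named libraries without overlap, where 14.6% of all tested genes had such a ratio. For 2 others, Fcer1a and Mrgprb1, it was lower, where 24.7% had. For Mrgprb1 the groups nearly met, at 0.0415 in KO-named library 3 and 0.0428 in WT-named library 1, and for Kit they met, at 0.102 in KO-named library 1 and 0.102 in WT-named library 3.

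**Figure D4:**
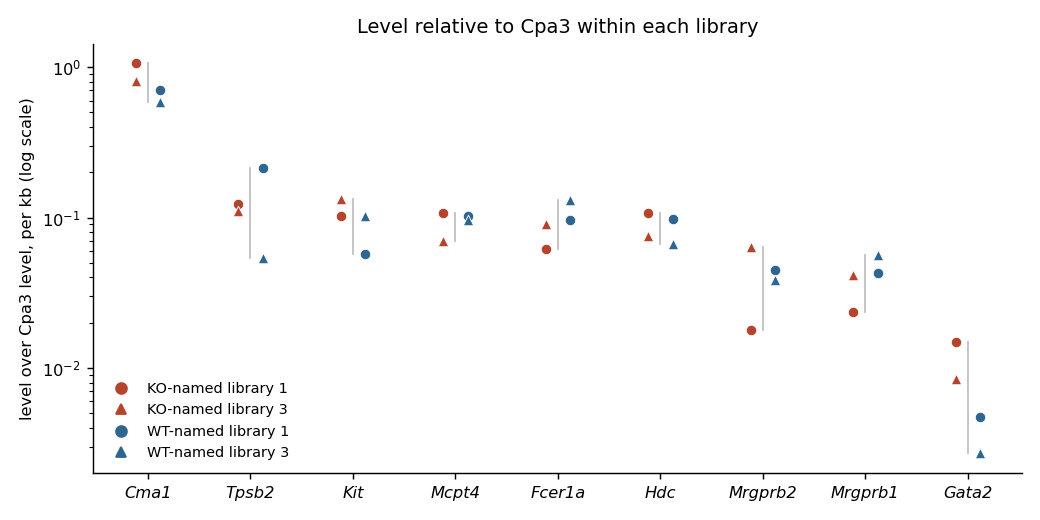
Level of each mast cell gene per kilobase over that of Cpa3 in the same library, on a log axis, with KO-named libraries left of WT-named ones and grey lines spanning the 4 libraries. Gata2 spans 0.00270 to 0.0148 with both KO-named libraries on top, and Mcpt4 and Hdc span the least.

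Further mast cell genes came from 6 lists of 68 genes in all, of which 50 were listed and 49 tested, the 10 members included. By edgeR 0 of 49 passed in either direction, where 0 of all 8753 tested genes did. There were 28 above 0 and 21 below, with a median log2 fold change of 0.05, the same to 2 decimals as that of all tested genes. Of the granule proteases, 5 of 11 were listed. The fifth was Tpsg1, a membrane-bound tryptase, with 0.298 and 9.19 CPM in KO-named libraries 1 and 3, against 11.01 and 6.37 CPM in WT-named libraries 1 and 3. The groups overlapped, and KO-named library 1 had 4 reads of it.

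Of 16 tested IgE receptor and signalling genes 10 were below 0, and the median log2 fold change was −0.40. The members aside, the genes with most CPM were the adaptor genes Lcp2, at 0.41 (SE 0.40, edgeR adjusted p = 0.866), and Lat, at 0.02 (SE 0.67). Ms4a2, the receptor's beta chain, was picked once its values were known and had 25.3 and 7.96 CPM in KO-named libraries 1 and 3, against 68.1 and 54.5 CPM in WT-named libraries 1 and 3. It was lower without overlap, as Fcer1a and 22.1% of all tested genes were, but did not pass edgeR (log2 fold change −1.88, SE 1.36, adjusted p = 0.760). The receptor's gamma chain Fcer1g, which macrophages and other cells also express, overlapped between the groups, with a log2 fold change of 0.03 (SE 0.77).

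In the list of histamine, amine storage and granule matrix genes, 7 of 10 were above 0 with a median log2 fold change of 0.28. Srgn, the serglycin core protein that carries heparin in mast cell granules and is made by many blood cells, had 6528 and 6910.5 CPM in KO-named libraries 1 and 3, against 4811 and 6166 CPM in WT-named libraries 1 and 3 (log2 fold change 0.29, SE 0.29). Hs2st1, a heparan sulfate sulfotransferase gene, was at 1.64 (SE 0.63, edgeR adjusted p = 0.439). Slc18a2, the vesicular transporter that loads histamine into granules, was likewise picked and had 141 and 217 CPM in KO-named libraries 1 and 3, against 205 and 93.5 CPM in WT-named libraries 1 and 3, and the groups overlapped.

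Of the surface receptors 4 of 7 tested genes were above 0, with a median log2 fold change of 0.05. Il1rl1, the interleukin-33 receptor of mast cells and ILC2 alike, was at 0.05 (SE 0.35). The inhibitory receptor gene Cd200r1 was at 0.79 (SE 0.47). Of the eicosanoid synthesis genes 3 of 4 were above 0, with a median of 1.37. Ptgs2, the inducible cyclooxygenase, had 256 and 203 CPM in KO-named libraries 1 and 3, against 61.0 and 10.5 CPM in WT-named libraries 1 and 3. It was higher without overlap, as were 17.8% of all tested genes, but did not pass edgeR (log2 fold change 2.68, SE 0.89, adjusted p = 0.433). Hpgds, the prostaglandin D synthase of mast cells that ILC2 also express, was at 1.43 (SE 0.94).

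Of the transcription factors 5 of 7 were above 0, with a median log2 fold change of 0.87. Fli1 was at 0.87 (SE 0.45) and Stat5b at 1.26 (SE 0.91). Mitf, a factor that mast cells require beside Gata2, was picked after its values were known and had 189 and 41.6 CPM in KO-named libraries 1 and 3, against 24.4 and 5.19 CPM in WT-named libraries 1 and 3. It showed the same order of libraries as Gata2 and did not pass edgeR (log2 fold change 2.96, SE 1.24, adjusted p = 0.474).

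Markers of other cells were read beside these values, as sums of CPM per kilobase. The 10 mast cell genes summed to 7278 and 5401 in KO-named libraries 1 and 3, against 5624 and 4386 in WT-named libraries 1 and 3. The 14 ILC2 genes, of which 14 were listed, summed to 5780.3 and 4919.9 in KO-named libraries 1 and 3, against 5021 and 5925 in WT-named libraries 1 and 3. The mast cell sum was therefore of the size of the ILC2 sum, at a ratio of 1.26 and 1.10 in KO-named libraries 1 and 3, against 1.12 and 0.740 in WT-named libraries 1 and 3. Areg, at 1091 to 1482 CPM per kilobase, and Id2, at 1045 to 1842, were the highest ILC2 genes in every library. The ratio depends on the genes listed and is not a ratio of cells. In log2 fold change 7 of the 14 were above 0 and 7 below, with a median of 0.02. Gata3, the transcription factor that ILC2 require, was between 716 and 1201 CPM, and Klrg1, a surface marker of activated ILC2, between 412 and 685 CPM. Other markers of the list were low, with Il13 between 1.86 and 19.3 CPM and Thy1 between 9.17 and 139.5 CPM. Il5, whose allele drives Cre here, had 86.5 and 177 CPM in KO-named libraries 1 and 3, against 541 and 320.3 CPM in WT-named libraries 1 and 3, and the groups did not overlap. With a log2 fold change of −1.71 (SE 0.56) Il5 did not pass edgeR (adjusted p = 0.433). Of all tested genes 22.1% were lower in the KO-named libraries without overlap. Il1rl1, also in the list, is shared with mast cells and does not tell them apart from ILC2.

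Basophils share Fcer1a, Hdc and Gata2 with mast cells. Of 6 basophil markers 4 were listed, and they summed to 98.04 and 106 CPM per kilobase in KO-named libraries 1 and 3, against 149 and 73.9 in WT-named libraries 1 and 3. Mcpt8, the basophil protease, had 74.4 and 33.8 CPM in KO-named libraries 1 and 3, against 45.5 and 12.4 CPM in WT-named libraries 1 and 3, and overlapped between the groups. Cd200r3, a receptor of basophils and mast cells, had 21.0 and 13.9 CPM in KO-named libraries 1 and 3, against 148 and 65.8 CPM in WT-named libraries 1 and 3, the same direction as Fcer1a. The part of basophil transcripts in the Fcer1a, Hdc and Gata2 values, or in those of Cpa3 and the other members, was not tested.

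The 3 mucosal mast cell markers have no row in the table and were not analysed here. Of 8 eosinophil markers the 1 listed, Ccr3, was between 0.0585 and 3.96 CPM, and of 8 neutrophil markers the 1 listed, Csf3r, between 1.97 and 3.13 CPM. Macrophage markers (2 of 8 listed) summed to 17.3 and 19.4 CPM per kilobase in KO-named libraries 1 and 3, against 1.64 and 6.19 in WT-named libraries 1 and 3, and the macrophage marker Adgre1 was at 0 in WT-named library 1. T cell markers (3 of 9 listed) summed to between 98.9 and 234 CPM per kilobase, almost all of it Cd3g, and Cd3e was at 0 in both KO-named libraries. Endothelial markers (3 of 5 listed) stayed at or under 0.598 CPM per kilobase. Adipocyte markers (3 of 8 listed) summed to 2.01 and 2.10 CPM per kilobase in KO-named libraries 1 and 3, against 32.2 and 11.7 in WT-named libraries 1 and 3, with Fasn at 0 in KO-named library 3. Fasn and Dgat2 made up that difference, while Lpl overlapped between the groups with a log2 fold change of 1.27 (SE 1.51).

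Fibroblast and stromal markers (2 of 7 listed, Gsn and Col1a2) summed to 267 CPM per kilobase in KO-named library 1 and to 0.0330 in KO-named library 3, against 1.78 and 0.191 in WT-named libraries 1 and 3. KO-named library 1 was also the highest library for Cpa3, Cma1, Mcpt4, Hdc and Gata2 in CPM and the lowest for Fcer1a, Mrgprb1 and Mrgprb2. Without it the log2 fold changes were 0.03 for Cpa3, 0.35 for Cma1, −0.28 for Fcer1a, 0.79 for Kit, −0.21 for Mrgprb1 and 1.20 for Gata2, all in the direction they had with it. Tpsb2 was at −0.30 and Mrgprb2 at 0.64, also in their earlier direction, whereas Mcpt4, at −0.48, and Hdc, at −0.13, changed sign.

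**Figure D5:**
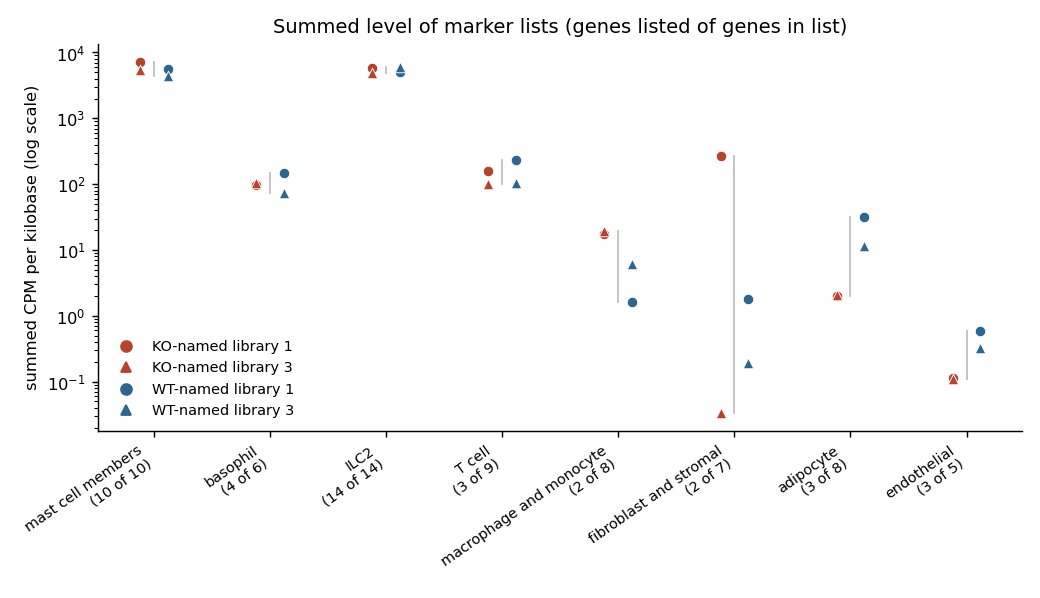
Summed CPM per kilobase of the 10 mast cell genes and of the marker lists named here with at least 2 listed genes, on a log axis, with the number of genes listed of those in the list below each name. Points are libraries, KO-named left of WT-named. The mast cell sum, 4386 to 7278, lies beside the ILC2 sum, 4919.9 to 5925, and the stromal sum reaches 267 in KO-named library 1 alone.

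By profile over the 4 libraries, Pcnp, Gpr132, Eprs, H2-T23 and Lpxn were most like the summed mast cell genes. Likeness was the root mean square difference of centred log2 CPM among 1727 genes with a mean of at least 100 CPM, and it was 0.057 for Pcnp and 0.075 for Lpxn, where Cpa3 itself had 0.084. Gata2, at 0.81, was the member least like the sum. With 4 libraries this is a description of these samples only.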

How the data were processed

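Per the labels' protocols, cells were sorted as ILC2 from adipose tissue, RNA was taken with Trizol and a Smart mRNA-seq kit was used. Per the submitters' processing notes the genome was mm10. The aligner and counter were not given in the sources used here. Estimated counts, as deposited by the authors, were rounded, since 20.0% to 21.6% of them per library were not whole. The authors also deposited log2 fold changes, p-values and q-values of a DESeq2 comparison, per the file headers, and the sign of that log2 column was KO over WT in 92.1% of genes that differed over 4-fold. A further 12 columns of per-sample values were not used.

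The test was edgeR 4.0.16 quasi-likelihood (R 4.3.3) with TMM factors, the filterByExpr filter and Benjamini-Hochberg adjustment over 8753 genes; SE is the log2 fold change over the square root of F. DESeq2 1.42.0, limma-voom (limma 3.58.1), other scalings and filters, a block and left-out libraries were alternatives. The edgeR, DESeq2 and limma-voom fits were also run on simulated data, with outcomes not reported here. That run is not offered as support for any of the fits. With 2 libraries a group an exact permutation p cannot go below 0.333, and none is given. A count of 0 allows up to 3 counts, 0.159 to 0.197 CPM by library size alone, without the TMM factors used for other CPM values. The members and lists were chosen with earlier results of these data known, and 1 further marker list is not reported here. Beside the members, the naming rule takes the 2 highest genes of each mast cell list and the 5 genes nearest in profile; ratios were chosen after the values were seen. Entrez numbers of 10906 genes (99.7%) matched RefSeq GRCm38.p6, which gave positions and promoters; levels per kilobase use the longest coding transcript of GENCODE M21, found for 10538 genes.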

Additional observations from a re-analysis of the deposited data

How the results depend on the processing

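No member passed an adjusted p of 0.05 under any alternative run. Of 110 alternative values 90 kept the sign of the value reported and 20 did not, all of them of Tpsb2, Mcpt4, Mrgprb2, Hdc and Cpa3; the cause was not tested. With library size alone the log2 fold change was −0.16 for Cpa3, −0.31 for Mcpt4, −0.035 for Hdc and −0.28 for Mrgprb2, and the log2 ratio of the summed level was 0.0023, against 0.35 as reported. Tpsb2 was at 0.056 with RLE factors and 0.23 by limma-voom. Without the filter Mcpt4 was at −0.071 and Mrgprb2 at −0.0022, and by limma-voom they were at −0.069 and −0.054. With 1 library left out the values ran from −0.71 to 1.39 for Tpsb2, −0.48 to 0.42 for Mcpt4, −0.89 to 0.64 for Mrgprb2, −0.13 to 0.73 for Hdc and 0.17 to 0.50 for the summed level. Genes called over the whole table numbered 0 as reported, 952 by DESeq2, 201 by limma-voom, and 0 to 7 with 1 library left out, the 7 without WT-named replicate 1, 5 without KO-named replicate 3 and 4 without WT-named replicate 3; a group left with 1 library is then assumed to vary like the other. Under a replicate block edgeR called 25 genes, none of them a member, and put Tpsb2 at 0.30, Mcpt4 at −0.021 and Mrgprb2 at −0.11. Over all tested genes the deviations of same-numbered libraries correlated at −0.0015, so the numbers were not taken as pairs. For 9 of the 10 members, though, library 1 lay on the same side of library 3 in both groups. The share of all tested genes that did so was not counted, so the 9 cannot be set against it. Each member had at least 370 reads in every library. With 2 libraries a group, a p that misses the threshold does not show that the groups are alike.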

Other observations

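Some mast cell genes outside the 10 varied widely between the libraries of a group, and those given here were chosen after their values were seen. Hrh4, a histamine receptor gene, had 888 reads in KO-named library 1 and 1 in KO-named library 3, against 1 and 2 reads in WT-named libraries 1 and 3. It did not pass the filter for edgeR. Of the 50 listed mast cell genes it was the 1 that DESeq2 called higher. Over all genes with an adjusted p DESeq2 called 952 (9.85%), 250 of them higher. Tph1, the serotonin-making tryptophan hydroxylase, had 14 and 583 reads in KO-named libraries 1 and 3, against 1139 and 26 reads in WT-named libraries 1 and 3. Tal1, a transcription factor of mast cells and other blood lineages, had 3 and 496 reads in KO-named libraries 1 and 3, against 435 and 82 reads in WT-named libraries 1 and 3. Tph1 and Tal1 were thus high in 1 library of each group. Of the 10 mast cell genes the widest, Gata2, spanned 7.42-fold in CPM.

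Il9r, the interleukin-9 receptor gene of mast cells and ILC2, was also picked after its values were known and had 32.9 and 23.1 CPM in KO-named libraries 1 and 3, against 128 and 173 CPM in WT-named libraries 1 and 3. It was lower without overlap, as were 22.1% of all tested genes. The log2 fold change was −2.43 (SE 0.85), and edgeR gave an adjusted p of 0.433.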
